A study of Mus musculus with 2 samples.

Results

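The 10 genes described here, Fam107a, Pla2g7, Cldn10, Gpr37, Ramp1, Hopx, Dct, Creg2, Adora2b and Tmem108, are 10 of the 31053 mouse genes counted in both libraries of this single-cell RNA-seq series. They were chosen by their measured levels in astroglial cells, as genes differing most between the ages, with no stated threshold, so their difference between the ages in the stem cell class is given as a description only. Each age had 1 library. The embryonic day 18 (E18) library came from mice of the CD1 strain and held what lies dorsal to the lateral ventricles, that is cortex with the dorsal ventricular-subventricular zone (V-SVZ), the germinal layer along the ventricle wall. Emx1Cre;R26Eyfp fl/fl mice gave the library of postnatal day 2 (P2), which held dorsal and lateral V-SVZ after removal of the cortex. In those mice Cre under Emx1 control, active in the cortical primordium, switches on EYFP, so that EYFP marks cells of cortical descent, while stem cells of the lateral wall mostly have another origin. The E18 mice are not labelled as carrying the reporter, and the sources used here do not give the number of animals behind either library. Living cells were sorted after papain digestion as propidium iodide negative and DRAQ5 positive, and their polyadenylated RNA was counted as unique molecular identifiers (UMIs). Age, dissection, mouse line and library cannot be told apart, so no test was possible, and every interval below is a 95% interval of counting error only.

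Radial precursors of the embryonic cortex make neurons and later glia, and some persist after birth as the neural stem cells of the V-SVZ. Postnatal stem cells, astrocytes and ependymal cells all descend from radial precursors and share many transcripts, so the cells carrying a gene are best placed by other markers. Hopx is an atypical homeodomain protein that does not bind DNA itself and, with Fam107a, is known as a marker of outer radial glia in human cortex. The other genes encode enzymes, receptors and membrane proteins whose roles are given where each is described.

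The E18 library held 2922 barcodes with 19986915 UMIs and the P2 library 2778 barcodes with 42572208 UMIs, and they shared 0 barcodes. Filtering left 2496 cells at E18 (median 6574 UMIs) and 2296 at P2 (median 12525 UMIs). The class of radial precursors or neural stem cells, called the stem class here, was 1 cluster in each library, with 94 E18 cells (568072 UMIs, median 6202.5 per cell) and 77 P2 cells (1534062 UMIs, median 19180). All 14 of its markers, such as Slc1a3, Fabp7 and Sox9, had UMIs at both ages, with a summed level of 30501 CPM (UMIs of a gene scaled to a total of 1e+06 per class) at E18 and 20910 CPM at P2. Among the 10 genes that led its cluster, 1 was such a marker at E18 (Fabp7) and 0 at P2, and in the P2 cluster the mural list scored 0.921 against 0.961 for the stem list, with 5 of 8 mural markers, Kcnj8 and Vtn among them, at 0 UMIs. The 14 maturing astrocyte markers summed to 1208 CPM in the E18 and 2913 CPM in the P2 stem class. EYFP was found in 42 of the 77 P2 stem cells, 54.5% (42.8 to 65.9%, exact Clopper-Pearson), and a cell with 0 EYFP UMIs may be one in which EYFP was missed.

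The P2 stem class was mixed in other respects that touch the comparisons below. Cells with 3 or more of 9 ependymal markers made up 4 of 94 E18 stem cells (4.26%), 5 of 42 EYFP-positive P2 stem cells (11.9%) and 26 of 35 EYFP-negative ones (74.3%). The whole ependymal list summed to 84.5 CPM at E18, 154 CPM in EYFP-positive and 685 CPM in EYFP-negative P2 cells, with Tmem212 at 0. Emx1, a transcription factor of the dorsal telencephalon, stood at 70.4 CPM in the E18 stem class, at 21.7 CPM in EYFP-positive P2 cells and at 0 UMIs in EYFP-negative ones. Six3, a factor of the ventral telencephalon at this age, ran the other way, from 3.52 CPM at E18 to 43.4 CPM in EYFP-positive and 168 CPM in EYFP-negative P2 cells. At E18, 1 stem class cell held UMIs of 7 of 8 endothelial markers, with 0 UMIs of all 10 genes.

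The 10 genes lie on 7 chromosomes (GRCm38, GENCODE vM21, all protein coding). The 5 that were higher at P2 are Fam107a at chr14:8296274-8318023, Pla2g7 at chr17:43568098-43612201, Cldn10 at chr14:118787908-118875489, Gpr37 at chr6:25665878-25690729 and Ramp1 at chr1:91179822-91225196. The 5 that were higher at E18 are Hopx at chr5:77086988-77115121, Dct at chr14:118012790-118052244, Creg2 at chr1:39618406-39651474, Adora2b at chr11:62248984-62266453 and Tmem108 at chr9:103482947-103761837. Genes on the opposite strand overlap exons of Pla2g7, Hopx, Creg2 and Tmem108, and the sources used here do not say whether counting used strand. Those antisense genes had between 0 and 2 UMIs in either stem class.

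The 250 bases before the RefSeq start of 4 genes are shown to set side by side a pair that was high at P2 and a pair that was high at E18 (RefSeq, GRCm38.p6, each 5′ to 3′ on the strand of its gene). Capitals mark matches, on either strand, to the GC box GGGCGG, the CCAAT box CCAAT, the E-box CAGCTG or the Sox motif ACAAAG. Pla2g7 is from chr17:43568201-43568450 on the plus strand, Ramp1 from chr1:91179572-91179821 on the plus strand, Dct from chr14:118052247-118052496 on the minus strand and Adora2b from chr11:62248734-62248983 on the plus strand. RefSeq places the Pla2g7 start inside the GENCODE gene, so its window lies within the span given above.
Pla2g7: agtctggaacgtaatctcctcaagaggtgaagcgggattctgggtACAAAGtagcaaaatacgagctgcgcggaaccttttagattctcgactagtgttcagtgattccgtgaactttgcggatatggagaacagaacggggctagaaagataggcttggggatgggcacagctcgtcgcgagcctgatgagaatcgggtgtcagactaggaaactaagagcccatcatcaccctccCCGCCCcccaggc
Ramp1: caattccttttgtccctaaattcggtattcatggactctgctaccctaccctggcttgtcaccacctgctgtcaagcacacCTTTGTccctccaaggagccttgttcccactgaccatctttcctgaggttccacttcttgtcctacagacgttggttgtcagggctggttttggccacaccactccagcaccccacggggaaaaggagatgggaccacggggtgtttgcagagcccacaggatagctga
Dct: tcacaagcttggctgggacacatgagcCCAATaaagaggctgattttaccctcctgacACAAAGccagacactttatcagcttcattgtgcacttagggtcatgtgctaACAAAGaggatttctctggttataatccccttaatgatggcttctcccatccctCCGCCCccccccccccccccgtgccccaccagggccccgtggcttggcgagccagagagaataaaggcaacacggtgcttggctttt
Adora2b: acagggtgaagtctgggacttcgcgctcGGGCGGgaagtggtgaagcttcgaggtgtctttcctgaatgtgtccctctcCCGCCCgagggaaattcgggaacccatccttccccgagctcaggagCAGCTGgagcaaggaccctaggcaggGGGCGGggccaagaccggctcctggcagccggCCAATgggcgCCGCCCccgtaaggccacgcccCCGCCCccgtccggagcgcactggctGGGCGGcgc

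Promoters of all 10 genes were found in RefSeq. Of the windows shown, the Sox motif stood in those of Pla2g7, Ramp1 and Dct, with 2 matches for Dct. Among windows not shown, it matched in Fam107a, Cldn10 and Tmem108. It stood in 16.5% of 32851 promoter windows of the same length. Adora2b held 6 GC boxes, a motif found at least once in 32.7% of all windows. GC boxes also matched in Pla2g7, Dct, Cldn10, Gpr37 and Tmem108. The CCAAT box (33.8% of windows) matched in Dct and Adora2b and, among windows not shown, in Cldn10, Hopx and Tmem108. Neither TATAAA (12.4%) nor the AP-1 motif TGACTCA (4.46%) matched in any window of the 10 genes. These are matches of letters and say nothing of binding. The Sox motif and the CCAAT box each matched in genes higher at P2 and in genes higher at E18. Any link to the direction of the difference was not tested.

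Among the genes higher at P2, Ramp1 and Fam107a were almost absent from E18 stem cells, while Pla2g7 and Cldn10 were present at a lower level. Ramp1 is the receptor activity-modifying protein that turns the calcitonin receptor-like receptor into a receptor for calcitonin gene-related peptide (CGRP). Its level was 1.76 CPM in E18 stem cells, from 1 UMI, and 181 CPM in P2 stem cells, from 277 UMIs, with a log2 ratio of P2 over E18 of 6.68 (4.19 to 11.99). It was seen in 1 of 94 E18 and 61 of 77 P2 stem cells, with at most 20 UMIs in a cell. Fam107a, which associates with actin filaments, also had 1 E18 UMI, against 193 in P2 cells (126 CPM), for a log2 ratio of 6.16 (3.66 to 11.47), and was seen in 48 of 77 P2 cells. With cells thinned to 3000 UMIs each, Ramp1 was found in 1 of 85 E18 and 28 of 73 P2 stem cells and Fam107a in 0 and 22.

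Pla2g7, a secreted enzyme that inactivates platelet-activating factor (PAF), had 38 UMIs in E18 cells (66.9 CPM) and 512 in P2 cells (334 CPM), and its log2 ratio was 2.32 (1.84 to 2.83). Cldn10, a claudin of cell junctions, had 22 and 434 UMIs (38.7 and 283 CPM) and a log2 ratio of 2.87 (2.25 to 3.56). Both genes were detected in 18 of 94 E18 stem cells, against 56 (Pla2g7) and 68 (Cldn10) of 77 at P2. Gpr37, an orphan receptor for which prosaposin has been proposed as a ligand, had 1 UMI in E18 cells and 50 in P2 cells (32.6 CPM), and a log2 ratio of 4.21 (1.67 to 9.54). Its level stayed under 50 CPM at both ages, and it was seen in 27 of 77 P2 cells.

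Among the genes higher at E18, Hopx differed least and stayed well detected at P2. Its 347 UMIs in E18 cells (611 CPM) compared with 195 in P2 cells (127 CPM), for a log2 ratio of −2.26 (−2.53 to −2.01). It was seen in 65 of 94 E18 cells, with a median of 2 and a highest value of 24 UMIs per cell, and in 37 of 77 P2 cells, with a median of 0 and a highest value of 21. The raw counts per cell overlapped between the ages over nearly their whole range. They came from cells of unequal depth, with medians of 6202.5 UMIs at E18 and 19180 at P2. Among the thinned cells, Hopx was found in 48 of 85 E18 and 16 of 73 P2 stem cells.

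Dct, Creg2, Adora2b and Tmem108 were close to the limit of detection in P2 stem cells. Dct, dopachrome tautomerase of the melanin pathway, which is also transcribed in the embryonic forebrain, had 62 UMIs at E18 (109 CPM) and 0 at P2, so it was 55.8-fold lower at P2 with the P2 class set to a floor of 3 UMIs, and at least 44.1-fold lower by the counting interval. Creg2, a secreted glycoprotein of the brain, had 47 and 3 UMIs (82.7 and 1.96 CPM) and a log2 ratio of −5.40 (−7.73 to −3.77). Adora2b, the low-affinity adenosine receptor that raises cyclic AMP, had 30 and 2 UMIs (52.8 and 1.30 CPM) and a log2 ratio of −5.34 (−8.45 to −3.36). Each of these 3 genes was carried by a minority of E18 stem cells, 27 of 94 for Dct, 28 for Creg2 and 26 for Adora2b, with at most 7 UMIs in a cell. Tmem108, a transmembrane protein of endosomes and dendritic spines in neurons, had 59 and 6 UMIs (104 and 3.91 CPM) and a log2 ratio of −4.73 (−6.23 to −3.52). After thinning, Dct, Creg2 and Adora2b were found in 16, 17 and 14 of 85 E18 stem cells and in 0 of 73 P2 stem cells. For Dct, seen in 0 of 77 cells without thinning, a limit drawn at a floor of 3 cells is 3.9%, which is not a Clopper-Pearson bound.

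All 10 genes were past 4-fold in the stem class by choice. Of 4118 genes with 50 or more CPM at 1 age, 3.4% were past 4-fold higher at P2 and 0.826% past 4-fold lower, and nothing is read from the count of the 10. The median log2 ratio was 4.21 over the P2-high genes, −5.34 over the E18-high genes with Dct at its bound, and 0.06 over all genes tested. TMM scaling lowered every ratio by 0.16 and left all 10 genes past 4-fold. Without the stem cells that held 3 or more ependymal markers, 46 P2 cells against 90 E18 cells, Hopx came to −1.66 (−1.93 to −1.39) and the other 9 genes remained past 4-fold. In those P2 cells Dct, Creg2 and Adora2b each had 0 UMIs.

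**Figure D1:**
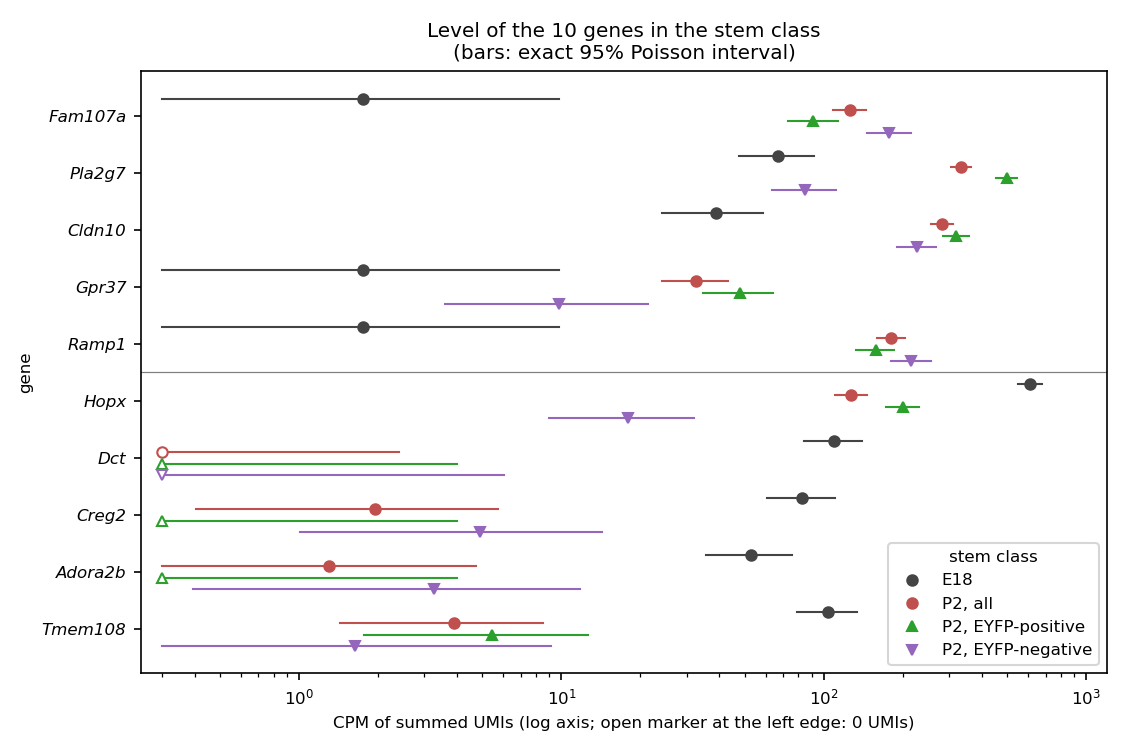
Level of each gene in the stem class, in CPM of summed UMIs on a log axis, for all E18 cells, all P2 cells and the EYFP-positive and EYFP-negative P2 cells; bars are exact 95% Poisson intervals and an open marker at the left edge means 0 UMIs. Hopx at 611 CPM in E18 cells was above its level in EYFP-positive (200 CPM) and EYFP-negative cells (17.9 CPM), and the intervals of these 3 groups did not overlap.

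EYFP divided the P2 astroglia for some of the genes and not for others. Over stem class and maturing astrocytes together, 57 EYFP-positive and 53 EYFP-negative cells, Hopx was higher in EYFP-positive cells by a log2 ratio of 3.68 (2.81 to 4.71) and Gpr37 by 2.48 (1.24 to 4.0). These were the 2 genes past 4-fold. Of 4091 genes that reached 50 CPM on either side, 0.196% were past 4-fold higher and 0.342% lower, and Gpr37 was under that minimum. Pla2g7 stood at 1.73 (1.47 to 2.0), Cldn10 at 0.33, Ramp1 at −0.51 and Fam107a at −0.90, the last of which came to 0.02 without the cells of 3 or more ependymal markers. Fewer UMIs of Dct, Creg2, Adora2b and Tmem108 were counted than a ratio could be drawn from with any precision.

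In the stem class by itself, a view added after seeing the data, Hopx had 184 UMIs in 42 EYFP-positive cells (200 CPM) and 11 in 35 EYFP-negative cells (17.9 CPM), a log2 ratio of 3.48 (2.60 to 4.5). Hopx was seen in 33 of 42 EYFP-positive and 4 of 35 EYFP-negative cells at similar depth, with median UMIs per cell of 20078.5 and 17549. Pla2g7 was at 499 and 84.8 CPM, a log2 ratio of 2.56 (2.14 to 3.0), in 41 and 15 cells. Gpr37 was at 47.8 and 9.79 CPM, a log2 ratio of 2.29 (1.05 to 3.81), in 23 and 4 cells. Hopx, Pla2g7 and Gpr37 were past 4-fold. Of 4182 genes that reached 50 CPM on either side, 0.43% were past 4-fold higher and 0.789% lower, a minimum that Gpr37 did not reach.

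The remaining P2-high genes differed less by EYFP. Cldn10 was found in every EYFP-positive stem cell (42 of 42) and in 26 of 35 EYFP-negative ones, with levels of 320 and 227 CPM and a log2 ratio of 0.50 (0.20 to 0.80). Fam107a was lower in EYFP-positive cells, at 91.2 against 178 CPM (−0.96, −1.39 to −0.54), and so was Ramp1, at 157 against 215 CPM (−0.45, −0.80 to −0.10). Creg2 had 0 UMIs in EYFP-positive and 3 in EYFP-negative cells, Adora2b 0 and 2, and Dct 0 in both. Over the whole P2 stem class Dct, Creg2, Adora2b and Tmem108 had 0, 3, 2 and 6 UMIs, levels tied to their choice. Near-0 levels on both sides of the EYFP split follow from that and say nothing of EYFP.

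Set against the E18 stem class separately, the EYFP-positive cells gave a log2 ratio for Hopx of −1.61 (−1.88 to −1.35) and the EYFP-negative cells −5.09 (−6.10 to −4.23). Pla2g7 was at 2.90 in EYFP-positive cells and at 0.34 (−0.29 to 0.99) in EYFP-negative cells, an interval that includes no difference from E18. Ramp1 was at 6.48 and 6.93, Fam107a at 5.69 and 6.66, and Cldn10 at 3.05 and 2.55, so these 3 were high at P2 with either EYFP status. These contrasts share the same E18 cells.

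The ependymal markers moved with EYFP, as given above, and so did other marker lists. In EYFP-positive and EYFP-negative stem cells the 10 cycling markers summed to 591 and 1253 CPM, with UMIs of 9 and 10 of them, and the 9 oligodendrocyte precursor markers to 331 and 81.6 CPM, with UMIs of 9 and 7. Their part in these differences was not tested. Within the P2 stem class, cells with 3 or more ependymal markers had lower Hopx (−2.68), Pla2g7 (−2.57), Gpr37 (−2.50) and Cldn10 (−1.07) and higher Fam107a (1.06) than the rest, as log2 ratios. With those cells left out, 37 EYFP-positive and 9 EYFP-negative stem cells remained. In them Hopx was at 3.87 (1.99 to 6.92), Gpr37 at 2.87 (0.31 to 8.20), Pla2g7 at 1.54 (0.96 to 2.18) and Ramp1 at −1.19 (−1.73 to −0.62). Fam107a came to −0.33 (−1.21 to 0.66) and Cldn10 to −0.40 (−0.82 to 0.04), both intervals including 0. The part that region of origin, for which Emx1 and Six3 are given above, has in these differences was not tested.

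Outside the stem class, EYFP status gave other values. In maturing astrocytes, with 15 EYFP-positive and 18 EYFP-negative cells, Pla2g7 was at 1.02, Cldn10 at −0.24 and Ramp1 at −0.39, and Fam107a, with 2 and 13 UMIs, was at −2.62 (−5.81 to −0.48), an interval that spans 4-fold. There 0.384% of 4165 genes with 50 or more CPM were past 4-fold higher and 0.384% lower, and Fam107a was under that minimum. In cycling cluster 15, with 34 and 33 cells, Ramp1 had 27 UMIs in EYFP-positive cells (21.7 CPM) and 101 in EYFP-negative cells (96.0 CPM), a log2 ratio of −2.15 (−2.82 to −1.52), where 0.0262% of 3813 genes were past 4-fold higher and 0.0787% lower. In oligodendrocyte precursors Ramp1 was at 113 and 162 CPM (−0.52, −0.92 to −0.11) and Tmem108 at 58.9 and 117 CPM (−0.99, −1.53 to −0.47). Ramp1 was therefore lower in EYFP-positive cells of all 4 cell groups, with an interval short of 0 in the stem class, cycling cluster 15 and oligodendrocyte precursors.

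**Figure D2:**
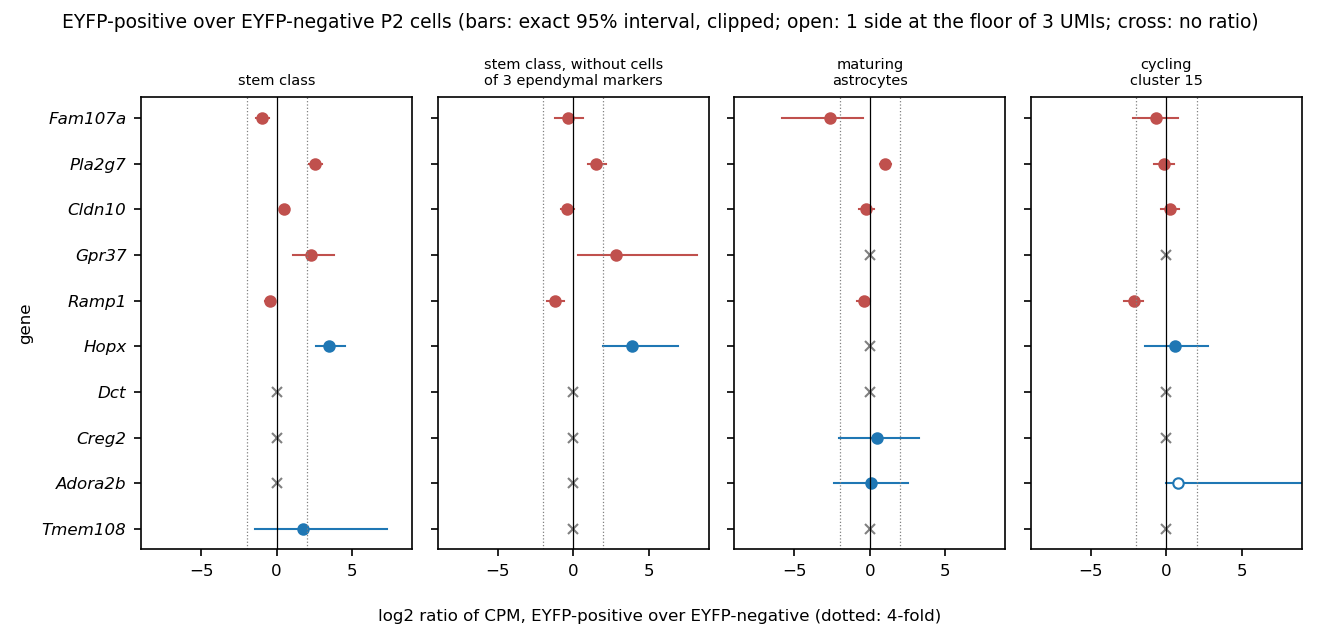
Log2 ratio of CPM, EYFP-positive over EYFP-negative P2 cells, for each gene in the stem class, the stem class without cells of 3 ependymal markers, maturing astrocytes and cycling cluster 15; bars are exact 95% intervals, dotted lines mark 4-fold, open markers have 1 side at the floor and crosses have no ratio. Hopx, Pla2g7 and Gpr37 lie to the right of 0 in the stem class (3.48, 2.56 and 2.29), and Ramp1 lies to the left of 0 in all 4 panels.

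Cycling cells were a class that the choice of the genes did not use. Cycling cells formed 1 E18 cluster of 106 cells and 3 P2 clusters, which were led by markers of different cell types and so are compared by number. P2 cluster 15, with 67 cells, had Egfr, a growth factor receptor of activated progenitors, among its leading genes. Against E18 cycling cells it had Hopx at 4.79 against 224 CPM (11 and 226 UMIs), a log2 ratio of −5.55 (−6.57 to −4.68). Tmem108 had 3 and 59 UMIs (−5.49, −7.80 to −3.87), Dct 1 and 27 (−5.94, −11.30 to −3.34) and Adora2b 6 and 11 (−2.06, −3.78 to −0.50). Creg2 had 0 UMIs in cluster 15 and 16 at E18, at −3.60 with cluster 15 at the floor. All 5 E18-high genes were thus lower in cluster 15 too.

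Ramp1 at 55.7 against 8.93 CPM (2.64, 1.67 to 3.80) and Cldn10 at 45.7 against 10.9 CPM (2.07, 1.17 to 3.11) were higher in cluster 15. Pla2g7 at 33.1 against 21.8 CPM gave 0.60 (−0.10 to 1.36), an interval that includes 0, and Fam107a had 19 UMIs against 0. In all, 7 of the 10 genes were past 4-fold, where the background was 1.52% higher and 0.874% lower of 3890 genes with 50 or more CPM, a level that only Ramp1, Hopx and Tmem108 reached. The count was 7 also for P2 clusters 7 and 11, but there Pla2g7, Cldn10 and Ramp1 were lower than in E18 cycling cells. In cluster 7 they stood at −5.19, −2.38 and −2.31 (background 2.37% higher and 3.51% lower of 3876), and in cluster 11 at −3.95, −2.95 and −3.07 (3.34% and 3.87% of 3952), each under 50 CPM at both ages. Hopx was lower in cluster 7 (−6.38) and in cluster 11 (−6.72) as well.

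In E18, the stem class was above the cycling class for the E18-high genes, with log2 ratios of 1.45 for Hopx, 2.03 for Dct, 2.38 for Creg2, 2.27 for Adora2b and 0.83 for Tmem108. At P2, the stem class was above cycling cluster 15 for Hopx at 4.73 (3.86 to 5.76), Fam107a at 3.93 (3.24 to 4.69), Pla2g7 at 3.33 (2.98 to 3.70), Cldn10 at 2.63 (2.32 to 2.95) and Ramp1 at 1.70 (1.39 to 2.01). Gpr37, with 50 UMIs against 1, was at 6.23 (3.68 to 11.56). The genes were chosen by their levels in astroglial cells, so these directions follow in part from the choice. No share over all genes is given for them. The stem clusters differed from the cycling ones in depth, with medians of 6202.5 against 9359 UMIs at E18 and 19180 against 33453 at P2.

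In oligodendrocyte precursors, with 50 E18 and 82 P2 cells, 6 of the 10 genes gave a ratio and 0 of these 6 were past 4-fold. Of 4169 genes with 50 or more CPM, a minimum that only Ramp1 and Tmem108 reached, 6.62% were past 4-fold higher and 1.03% lower. Fam107a, Pla2g7, Gpr37 and Adora2b had too few UMIs for a ratio. Ramp1 stood at 102 CPM before and 134 CPM after birth, with a log2 ratio of 0.40 (−0.12 to 0.96), so it was present before birth in this lineage while near 0 in E18 stem cells. Tmem108 was at 43.5 and 84.2 CPM (0.95, 0.18 to 1.83), higher at P2. Creg2 had 2 UMIs at E18 and 26 at P2 (1.53, −0.47 to 4.65), and Hopx had 4 and 19 UMIs (0.07, −1.52 to 2.09). The E18 class held 344449 UMIs, which limits what could be seen there for the rarer genes.

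**Figure D3:**
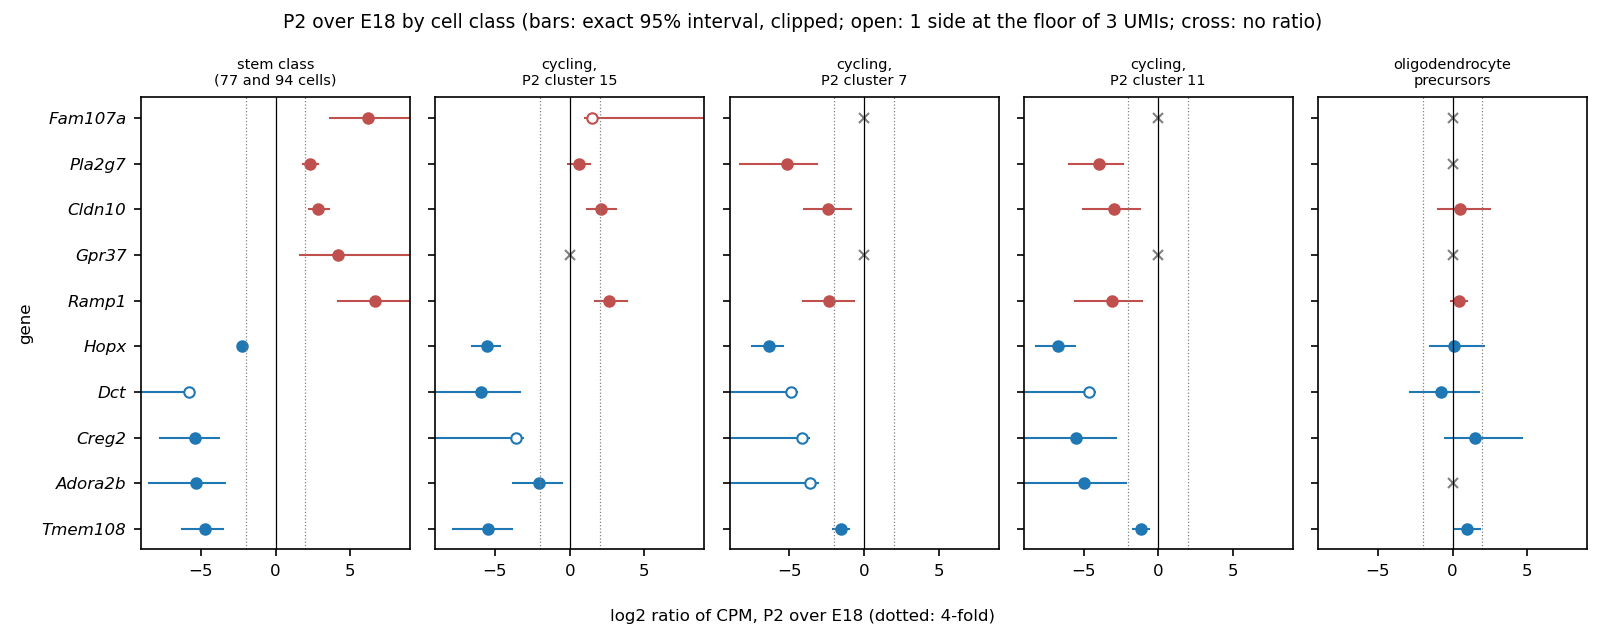
Log2 ratio of CPM, P2 over E18, for each gene in the stem class, in P2 cycling clusters 15, 7 and 11 against the E18 cycling cells, and in oligodendrocyte precursors; bars are exact 95% intervals, dotted lines mark 4-fold, open markers have 1 side at the floor and crosses have no ratio. Hopx is to the left in the stem class (−2.26) and all 3 cycling panels (−5.55, −6.38 and −6.72), whereas Pla2g7 is to the right in the stem class (2.32) and to the left in clusters 7 and 11 (−5.19 and −3.95).

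Across all classes of both libraries with 20 or more cells, 9 of the 10 genes had their highest level in an astroglial class (stem class or maturing astrocytes), and Tmem108 was the exception. The genes were chosen among genes of astroglia, so this count follows largely from the choice, and among 6849 genes with 50 or more CPM in 1 class 22.6% had their highest level there. Hopx was highest in the E18 stem class (611 CPM), followed by E18 cycling cells (224 CPM), the P2 stem class (127 CPM) and E18 excitatory intermediate progenitors (26.6 CPM), steps whose intervals did not overlap. Dct began in the same order, with 109 CPM in the E18 stem class and 26.8 CPM in E18 cycling cells, but the next, 24.8 CPM in E18 excitatory intermediate progenitors, did not differ from cycling cells beyond its interval. Creg2 stood at 82.7 CPM in the E18 stem class, with 16.7 CPM in P2 oligodendrocyte precursors and 15.9 CPM in E18 cycling cells. Adora2b stood at 52.8 CPM in the E18 stem class and at 13.5 CPM in P2 maturing astrocytes, and the 5 E18 mural cells gave 77.6 CPM from 3 UMIs.

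Tmem108 was mainly neuronal. It stood at 279 CPM in E18 excitatory neurons, where single clusters ranged from 111 to 801 CPM, and at 206 CPM in E18 excitatory intermediate progenitors, above the E18 stem class at 104 CPM. In P2 it reached 96.8 CPM in excitatory neurons and 84.2 CPM in oligodendrocyte precursors, levels whose intervals overlap, while the P2 stem class was at 3.91 CPM.

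Among the P2-high genes, Pla2g7 was at 467 CPM in maturing astrocytes and 334 CPM in the P2 stem class, a log2 ratio of 0.49 (0.27 to 0.70). Ramp1 was likewise higher in maturing astrocytes, at 322 against 181 CPM (0.84, 0.56 to 1.11), and the 9 ependymal cells were at 377 CPM. Cldn10 was nearly level, at 231 CPM in astrocytes and 283 CPM in the stem class (−0.29, −0.58 to −0.01). Fam107a was higher on the stem side, at 25.3 CPM in astrocytes and 126 CPM in the stem class (−2.31, −3.18 to −1.56). Gpr37 had 0 UMIs in astrocytes and was 6.44-fold lower there than in the stem class with a floor of 3 UMIs, and at least 5.05-fold lower by the counting interval. Hopx, an E18-high gene, was lower in astrocytes as well, with 2 UMIs (3.37 CPM) against 195 (−5.24, −8.29 to −3.36). Creg2 and Adora2b went the other way on few UMIs. Creg2 had 7 in astrocytes and 3 in the stem class (2.59, 0.46 to 5.18), and Adora2b had 8 and 2 (3.37, 1.05 to 6.64). Tmem108, with 2 and 6 UMIs, was at −0.21 (−3.55 to 2.27), and Dct, with 1 and 0, gave no ratio. The split between these classes depended on the settings. No P2 cell was classed as a maturing astrocyte with the chosen genes in clustering or at a mitochondrial limit of 5%. The same held at Leiden resolution 0.5 and with no doublets dropped. At 1000 or more genes and at resolution 1.5 the class held 46 and 39 cells, against 33 as reported.

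Excitatory neurons, taken as cells that should largely lack astroglial transcripts, show how often a cell outside the class carries a UMI. Among 217 P2 excitatory neurons with a median of 12271 UMIs, Pla2g7 was seen in 6.91%, Cldn10 in 4.15%, Hopx in 3.23%, Ramp1 in 2.76% and Fam107a in 0 cells. Among 1837 E18 excitatory neurons with a median of 6824 UMIs, Hopx was seen in 2.83%, Creg2 in 1.91%, Dct in 0.708% and Adora2b in 0.0544%. Creg2 reached 22.6 CPM in 1 of the E18 excitatory clusters, cluster 8. All of these shares were far under those of the stem class in which each gene was high. Microglia at P2, with a median of 19431 UMIs, carried Ramp1 in 16 of 43 cells (49.2 CPM) and Pla2g7 in 7 of 43 (25.7 CPM), with 0 EYFP-positive cells among them.

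**Figure D4:**
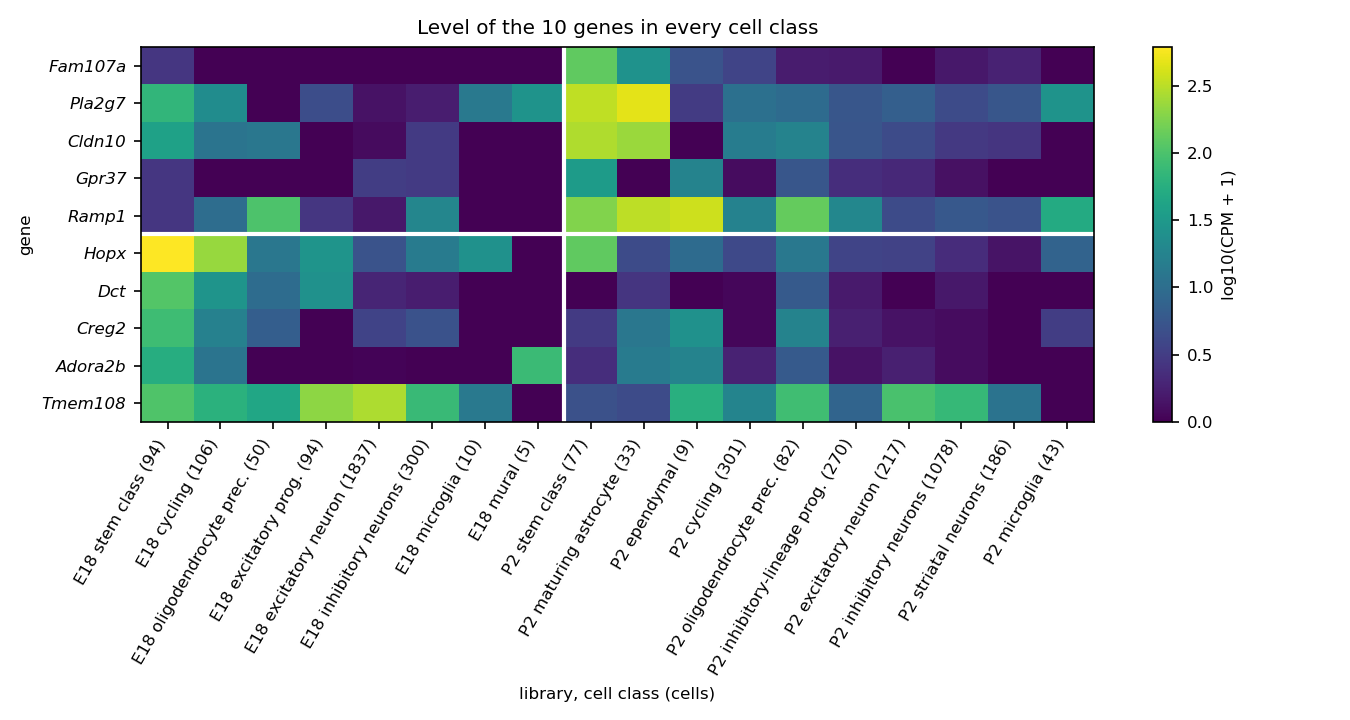
Level of each gene as log10(CPM + 1) of summed UMIs (colour) in every class of the E18 library (left of the white line) and the P2 library (right), with the number of cells in brackets. The E18-high genes below the white line are brightest in the E18 stem class except Adora2b, brighter in the 5 mural cells, and Tmem108, brightest in E18 excitatory neurons (279 CPM), while Ramp1 is seen in oligodendrocyte precursors at both ages (102 and 134 CPM).

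Within the stem class, cells with UMIs of both of 2 genes were counted, and no overlap expected from detection alone was computed. At E18, single genes were seen in 65 (Hopx), 27 (Dct), 28 (Creg2) and 26 (Adora2b) of 94 cells. At E18, 22 of 94 cells (23.4%) held UMIs of both Hopx and Dct, 10 held both Dct and Creg2, 8 both Creg2 and Adora2b, and 5 both Dct and Adora2b. At P2, 56 of 77 cells held both Cldn10 and Ramp1, 54 both Pla2g7 and Cldn10 and 44 both Fam107a and Cldn10. Fam107a and Gpr37 were together in 15 cells, and all 27 Gpr37 cells held Cldn10. Both Pla2g7 and Hopx were held by 35 of 77 P2 cells (45.5%), although these genes differed in opposite directions between the ages. Hopx and Fam107a, the genes known from human outer radial glia, were together in 17 of 77 P2 cells, with 37 and 48 cells positive for each. Over cells thinned to 3000 UMIs, Spearman's rho was 0.16 for Hopx and Dct at E18, 0.22 for Hopx and Pla2g7 at P2 and −0.20 for Hopx and Fam107a at P2. In counts this sparse such values are descriptions of these cells and no finding.

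Genes that work with the 10 showed few matching differences in the stem class. Of the prosaposin receptor list, 2 of 4 genes with 10 or more UMIs were past 4-fold higher at P2, with a median of 2.21. Among all 10867 genes with as many UMIs, 7.1% were past 4-fold higher and 1.1% lower, with a median of 0.29. The 2 genes were Gpr37l1, the close relative of Gpr37, with 1 E18 UMI and 86 P2 UMIs (1.76 and 56.1 CPM, log2 ratio 4.99, 2.48 to 10.31), and Sort1, the sorting receptor for prosaposin, with 4 and 96 UMIs (3.15, 1.75 to 5.06). Psap, prosaposin itself, was at 542 and 657 CPM (0.28, 0.09 to 0.47). Unlike Gpr37, Gpr37l1 was lower in EYFP-positive than EYFP-negative P2 stem cells, at 38.0 against 83.2 CPM (−1.13, −1.79 to −0.48).

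Of the CGRP and adrenomedullin list 0 of 4 genes with enough UMIs were past 4-fold between the ages, with Ramp2 at 0.37 (−0.58 to 1.44) and Crcp, the CGRP receptor component protein, at −1.51 (−2.19 to −0.83). Ramp2 was, however, higher in EYFP-positive P2 stem cells, at 40.2 against 8.16 CPM (2.30, 0.95 to 4.0), where Ramp1 was lower. Calcrl, the receptor that Ramp1 acts on, had 1 UMI in EYFP-positive and 1 in EYFP-negative P2 stem cells. Of the adenosine list 0 of 3 were past 4-fold, with Entpd2, which hydrolyses ATP at the cell surface, at 72.2 CPM in E18 and 266 CPM in P2 stem cells (1.88, 1.42 to 2.38). Of the PAF list 0 of 7 were past 4-fold between the ages, with a median of 0.66, and by EYFP Lpcat2, a PAF-synthesising enzyme, had 1 UMI in EYFP-positive and 9 in EYFP-negative cells (−3.76, −9.21 to −0.91).

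Of the outer radial glia list, which comes from primate cortex, 0 of 10 further genes with enough UMIs were past 4-fold between the ages, with a median of 0.36. Tnc, an extracellular matrix protein, was at 468 CPM in E18 and 287 CPM in P2 stem cells (−0.70, −0.93 to −0.48). Within P2 Tnc was at 414 CPM in EYFP-positive and 97.9 CPM in EYFP-negative stem cells (2.08, 1.68 to 2.50), and Bmp7, a secreted signal, had 28 and 0 UMIs (2.63 at the floor). These were 2 of 10 further list genes past 4-fold higher in EYFP-positive cells, with a list median of 0.68. Among all 10331 genes with 10 or more UMIs, 1.34% were past 4-fold higher and 2.01% lower, with a median of −0.02. Of the Hopx partners list 1 of 4 was past 4-fold, Srf, a transcription factor whose activity Hopx is known to restrain, with 0 UMIs at E18 and 37 at P2 (2.19 at the floor). Of the claudin list 1 of 4 was past 4-fold, Cldn5, whose 57 E18 UMIs all lay in the 1 cell with endothelial markers. Of the melanocyte list only Slc24a5 had enough UMIs (−0.80), so Dct stood without the other melanin genes, and the relatives Creg1 (0.12) and Fam107b (−0.02) were nearly level between the ages.

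The genes whose pattern over 15 classes was most like each of the 10 were ranked by Pearson's r of log2(CPM + 10) among 6570 genes. The classes share libraries and differ in depth, so r is a description. They include the stem classes whose levels chose the 10 genes, so likeness among the 10 follows in part from the choice. Fam107a was like Itih5 (0.997) and Itih3 (0.959). Pla2g7 was most like Clybl (0.976), Pld2 (0.971) and Slc27a1 (0.970), and Cldn10 most like Adhfe1 (0.985), Fbxo2 (0.980) and Slc7a10 (0.973). Gpr37 and Ramp1 had looser likenesses, Gpr37 with Crym (0.925), Prex2 (0.908) and Rarres2 (0.886) and Ramp1 with Rasa3 (0.928), Cpq (0.916) and Pdlim5 (0.905). Among the P2-high genes the closest pair was Pla2g7 and Cldn10 (0.924).

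Of the E18-high genes, Hopx was most like Myl9 (0.936), Egln3 (0.919) and Slc14a2 (0.919). Tmem108 was most like Marcksl1 (0.871), Pianp (0.850) and Ubl7 (0.846). Creg2 and Adora2b were most like each other (0.944), followed by Commd10 (0.879) and Itm2a (0.875) for Creg2 and by Cldn5 (0.898) and S1pr3 (0.866) for Adora2b. Dct was nearest to Cldn5 (0.864), Cops7a (0.855) and Fam162a (0.847). All E18 stem class UMIs of Cldn5 lay in the 1 cell with endothelial markers, which held 0 UMIs of Dct and Adora2b.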

How the data were processed

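The values deposited by the authors are UMI counts of each gene in each barcode, raw, from Cell Ranger 4.0.0, per the file headers, run on mm10, per the submitters' processing notes. Gene and barcode lists were deposited beside them and hold names, of the type other. How cells were called is not stated in the sources used. Cells with 500 or more genes and at most 10% mitochondrial UMIs were kept, which removed 291 E18 and 336 P2 barcodes. Scrublet (scanpy 1.11.5, expected doublet rate 0.05) called 7 and 4 doublets, too few for a working call, so the highest 5% of scores (135 and 146 cells) were dropped. Each library was clustered by itself on 2000 variable genes, 30 components and 15 neighbours by the Leiden method at resolution 1 (scikit-learn 1.9.0, igraph 0.11.9, leidenalg 0.10.2). The 10 genes, EYFP, mitochondrial, haemoglobin and sex-linked genes took no part. The 17 E18 and 20 P2 clusters were named from 19 marker lists, none holding any of the 10 genes, and names mean like that type. The naming thresholds were set after the clusters were seen: a cluster took its best-scoring list if that scored 0.45 or more, unless a list within 0.2 of it had 2 or more, and more, markers among the 10 leading genes. P2 cycling clusters 11 and 15 and P2 stem cluster 13 had 0 of their own markers among those genes, and more from other lists led clusters 11 and 15. The authors' own cell annotation was not used here, so differences from theirs may come from rebuilt names.

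UMIs were summed per class and scaled to CPM. Log2 ratios have exact conditional, levels exact Poisson and shares exact Clopper-Pearson 95% intervals (scipy 1.17.1, numpy 2.4.6), all for counting error only, and the interval script was tested on simulated data. For a group with 0 UMIs the ratio was drawn at a floor, taken as 3 UMIs for the whole group. Past 4-fold was the call, and its background is the share of all genes with 50 or more CPM in 1 group. Of the 10 genes, 9 met that minimum in the stem class and Gpr37 did not. Thinning drew 3000 UMIs per cell and left out shallower cells. The genes named were the 10, the 3 genes most like each by Pearson's r of log2(CPM + 10), and members of 9 gene lists, some of which are not reported here. The 10 genes and the lists were chosen with earlier results of these data known. Other settings, varied 1 at a time, were the filters, clustering resolution, doublet removal, TMM scaling, thinning and cell weighting.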

Additional observations from a re-analysis of the deposited data

Results flagged for a closer look

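For 4 of the 10 genes the difference between P2 and E18 had opposite signs in different cell classes, with counting intervals on opposite sides of 0. Pla2g7 was higher at P2 in the stem class (log2 ratio 2.32) but lower in P2 cycling cluster 7 (−5.19) and cluster 11 (−3.95) than in E18 cycling cells. Cldn10 was at 2.87 in the stem class, −2.38 in cluster 7 and −2.95 in cluster 11. Ramp1 was at 6.68 in the stem class, −2.31 in cluster 7 and −3.07 in cluster 11. Tmem108 was lower at P2 in the stem class (−4.73) and higher in oligodendrocyte precursors (0.95). With 1 library per age the difference between these contrasts was not tested, and the clusters compared differ in the markers that lead them.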

How the results depend on the processing

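No gene past 4-fold in the stem class or by EYFP changed direction under the settings run. In cycling cells Ramp1 (2.64) and Cldn10 (2.07) in P2 cluster 15 came to −2.31 and −2.38 in cluster 7 and to −3.07 and −2.95 in cluster 11. By EYFP in the pooled astroglia, Fam107a (−0.90) came to 0.02 and Cldn10 (0.33) to about 0 without ependymal-marked cells, and Adora2b, with 10 UMIs, changed sign to 0.27 at 1000 or more genes and at Leiden resolution 0.5. All 10 genes were past 4-fold in the stem class under 8 alternatives, and 9 were with cells thinned to 3000 UMIs, with EYFP-positive P2 cells only, with cells weighted equally and without ependymal-marked cells. In the stem class, log2 ratios ranged from −2.87 to −1.61 for Hopx, from −6.99 to −1.02 for Creg2 and from 0.96 to 4.79 for Gpr37. The other genes stayed past 4-fold there. By EYFP, log2 ratios ranged from 3.03 to 5.19 for Hopx and from 1.09 to 2.56 for Pla2g7. The median of the E18-high genes, −5.34, came to −3.36 with no doublets dropped, −2.59 thinned, −4.14 with P2 astrocytes pooled in and −4.26 in EYFP-positive cells. The share of all genes past 4-fold, 4.23%, came to 5.34% at 1000 or more genes per cell, 7.66% thinned and 8.21% over genes of 10 or more UMIs. The cycling count of 7 came to 4 at 1000 or more genes, 3 thinned and 4 for the whole P2 cycling class, and the 9 genes highest in astroglia to 5 at Leiden resolution 0.5, where E18 stem cells merged with cycling cells. The P2 share with Hopx and Pla2g7, 45.5%, came to 32.5% with the 10 genes in clustering, 33.0% at a mitochondrial limit of 5% and 16.4% thinned, and the E18 share with Hopx and Dct, 23.4%, to 12.9% thinned. With the 10 genes in clustering and at the 5% limit, 0 P2 cells were classed as maturing astrocytes. The P2 stem class then held 114 and 97 cells, against 77 as reported. Maturing astrocytes at P2 were also at 0 cells at Leiden resolution 0.5 and with no doublets dropped. There the P2 stem class held 127 and 149 cells. At 1000 or more genes and at resolution 1.5, 46 and 39 P2 cells were classed as maturing astrocytes. As reported, Hopx was seen in 2 of 33 maturing astrocytes. The cause of these shifts was not tested, except that thinning lowers detection by construction. At resolution 0.5 the stem class, and there and at 1000 genes the oligodendrocyte precursors, gave no value. Clusters in other settings took the class that most of their cells had as reported. The settings chosen after seeing the data were the other cycling clusters, the stem class by itself and the leaving out of ependymal-marked cells or of the endothelial-marked cell. No paired analysis was possible because each age had 1 library, so no replicate could be left out either. Depth limits the ratios of Fam107a, Gpr37, Ramp1, Dct, Creg2 and Adora2b, which had 0 to 3 UMIs in the stem class at 1 age.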

Other observations

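Dct and Cldn10 lie on the same stretch of chromosome 14, with their 5′ ends 736 kb apart, and differed in opposite directions between the ages in the stem class (62 to 0 and 22 to 434 UMIs from E18 to P2). Between them, Sox21, a transcription factor of neural progenitors, was at 188 CPM in E18 and 244 CPM in P2 stem cells (log2 ratio 0.37, 0.06 to 0.70), Gpr180 at 1.04 (−0.13 to 2.45) and Tgds at −0.35 (−1.64 to 1.08).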
